A study of Mus musculus with 24 samples.

Results

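The axon guidance ligands and receptors are the genes whose symbols begin with Efna, Efnb, Epha, Ephb, Sema, Plxn, Nrp, Slit, Robo, Ntn or Unc5, followed by a digit or a letter from a to d, and that had counts in both RNA-seq and MeRIP-seq of mouse embryonic stem (ES) cells. Of 47937 genes in both count tables, 72 symbols met these letters and 69 had counts in both. The 3 others, Plxna4os1, Plxna4os2 and Plxna4os3, are antisense RNAs without an RNA-seq count. The 69 genes were 5 Efna, 3 Efnb, 9 Epha, 5 Ephb, 20 Sema, 9 Plxn, 2 Nrp, 3 Slit, 4 Robo, 3 Ntn and 6 Unc5 genes. By role they were 34 ligands and 33 receptors, and 2 genes are in the list by their letters only: Unc50, a Golgi membrane protein, and Unc5cl, which is related to the Unc5 receptors but does not bind netrins.

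These families signal between neighbouring cells and steer growing axons, and they also act in cell sorting and vessel growth outside the nervous system. Ephrins (Efna, Efnb) are membrane-bound ligands of the Eph receptor tyrosine kinases, and semaphorins bind plexins, the secreted class 3 semaphorins with neuropilins (Nrp) as co-receptors. Slits repel axons through Robo receptors, and netrins attract through Dcc and repel through Unc5 receptors. N6-methyladenosine (m6A) is placed on nascent RNA by the complex of Mettl3, the catalytic subunit, and Mettl14, which helps to bind RNA. In mRNA it lies mostly in long exons and around stop codons, in short motifs such as GGACT, and can shorten the life of the transcript.

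The lines were compared with 2 biological replicates each. WT26 cells are wild type ES cells of mixed 129/Sv and C57Bl6 background, and the *Mettl14* KO line is clone A10, made from WT26 by CRISPR, with a homozygous frameshift deletion. RBC cells carry BirA-V5 at Rosa26 and Cre-ERT2, and the *Mettl3* KO line is clone 2c4d, made from RBC and carrying the same transgenes, so each knockout is 1 clone with its own parental control. All lines were grown on gelatin with LIF and serum replacement. The study's text describes nuclear RNA, while the labels name total RNA as the molecule, so the levels may be those of nuclear or of total RNA. RNA-seq gave 8 libraries with 11321459 to 13743181 counted reads, and MeRIP-seq gave 16, from input RNA and from RNA bound by an m6A antibody (IP), with 9394163 to 28441282. The axon guidance genes took 0.211% to 0.216% of the RNA-seq reads in the 4 control libraries and 0.152% to 0.164% in the 4 knockout libraries. Without Epha2 and Epha4 the shares were 0.149% and 0.154% in WT26, 0.123% and 0.132% in the *Mettl14* KO, 0.133% and 0.129% in RBC cells and 0.124% and 0.12% in the *Mettl3* KO, each knockout still below its own control.

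The lines were checked with marker lists. All 12 pluripotency markers were detected in every library, and their summed normalized counts were 38015.2 and 39002.8 in WT26, 27247.7 and 27304.7 in the *Mettl14* KO, 33916.5 and 34201.4 in RBC cells and 20813 and 21626.5 in the *Mettl3* KO. The summed counts of 7 primitive endoderm markers were 106.7 and 99.8 in WT26, 323.5 and 309.8 in the *Mettl14* KO, 164.4 and 175.5 in RBC cells and 120.9 and 147.1 in the *Mettl3* KO. By the rule for calls given below, all 5 that could be tested rose in the *Mettl14* KO (7.95% of all tested genes). In the *Mettl3* KO 0 of the 5 rose and 1 fell (6.15% and 7.43% of all). Of the 12 pluripotency markers 0 rose and 1 fell in the *Mettl14* KO, and 0 rose and 3 fell in the *Mettl3* KO. On the adjusted p alone, 12 were lower in the *Mettl14* KO (27.0% of all). In the *Mettl3* KO 10 were lower and 2 higher (28.1% and 25.2% of all). The 9 neural markers summed to 945 and 958.8 in WT26, 837.3 and 855.3 in the *Mettl14* KO, 1449.6 and 1459 in RBC cells and 1634.8 and 1685.1 in the *Mettl3* KO, with 2 or 3 of them at 0 in each library. By the rule for calls, of 5 tested neural markers 1 rose and 1 fell in the *Mettl14* KO. In the *Mettl3* KO 1 rose and 0 fell. The part of these marker levels in the changes below was not tested, and in RNA of whole cultures fewer cells of a type cannot be told apart from less RNA per cell. Reads of the targeted genes were still counted: Mettl14 had 400.6 and 357.5 normalized counts in WT26 and 296.5 and 315.6 in the *Mettl14* KO, and Mettl3 had 927.7 and 978.9 in RBC cells and 880 and 820.9 in the *Mettl3* KO. The alleles are therefore taken from the labels and not from these levels.

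The GGACT sequence was searched on the sense strand of 1 protein-coding GENCODE transcript per gene (GRCm38). It was present in 68 of the 69 genes, all but Ntn5, and in 86.6% of 21899 protein-coding genes. The median was 1.41 GGACT per kb in the axon guidance transcripts and 1.01 in all. The axon guidance transcripts were also longer, with a median of 4548 bases against 2539. The sites below are those nearest to the end of the coding part in 6 genes that were enriched by the m6A antibody in at least 1 line or carried most of the reads, and in Plxna3, which was depleted in the IP of *Mettl3* KO cells. Capitals mark GGACT, and each window is read 5′ to 3′ on the strand of the gene. A match is not evidence that the site is methylated.
Efna4: tacatggtGGACTggtcaggc
Efna2: cccaccgcGGACTtgccttgc
Efnb1: gtgagtggGGACTacgggcat
Sema4b: gctcttggGGACTtctccaaa
Epha2: gcctgctgGGACTcaaggacc
Epha4: ttaatgctGGACTgctggcag
Plxna3: ctgggcaaGGACTcaccttcc
On GRCm38 they lie at chr3:89335340-89335360 on the minus strand (Efna4, coding part, 382 bases before the last coding base), chr10:80189217-80189237 on the plus strand (Efna2, 3′ untranslated part, 440 bases after it) and chrX:99147444-99147464 on the plus strand (Efnb1, coding part, 70 bases before it). The Sema4b site is in the 3′ untranslated part at chr7:80225658-80225678, plus strand, 336 bases after the last coding base. The Epha2 site is in the coding part at chr4:141328469-141328489, plus strand, 36 bases before that base. The Epha4 site is in the coding part at chr1:77377518-77377538, minus strand, 382 bases before it, and the Plxna3 site in the coding part at chrX:74341675-74341695, plus strand, 307 bases before it.

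A few receptors and 1 semaphorin carried most of the reads. Epha2, Epha4, Plxna1, Plxnb2 and Sema4b took 61.2% to 66.41% of all axon guidance reads in the control libraries and 52.67% to 52.91% in the knockouts. Levels between genes are compared as normalized counts per kb of exon, where 8 genes were above 100, 34 above 10 and 12 below 1 in the mean over the lines. Epha2, a receptor of A-type ephrins, was the highest, with 799.7 per kb in WT26 and 1035 in RBC. The next were Epha4, which binds ligands of both ephrin classes (475 and 778.1), the B-type plexin Plxnb2 (427.7 and 343), the membrane-bound semaphorin Sema4b (386 and 346.3) and Plxna1 (326.6 and 363.7). The highest members of the other families were Unc50, Ephb4, Ntn1, Efna4, Robo4, Efnb3, Nrp2 and Slit3, with means over the lines from 241.5 per kb (Unc50) to 9.95 (Slit3). Among the netrin receptors in the list Unc5b was the highest, with 201.7 and 194.3 normalized counts in WT26. Between lines the order was not fixed: Epha4 was above Plxnb2 in both controls and below it in both knockouts.

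**Figure D1:**
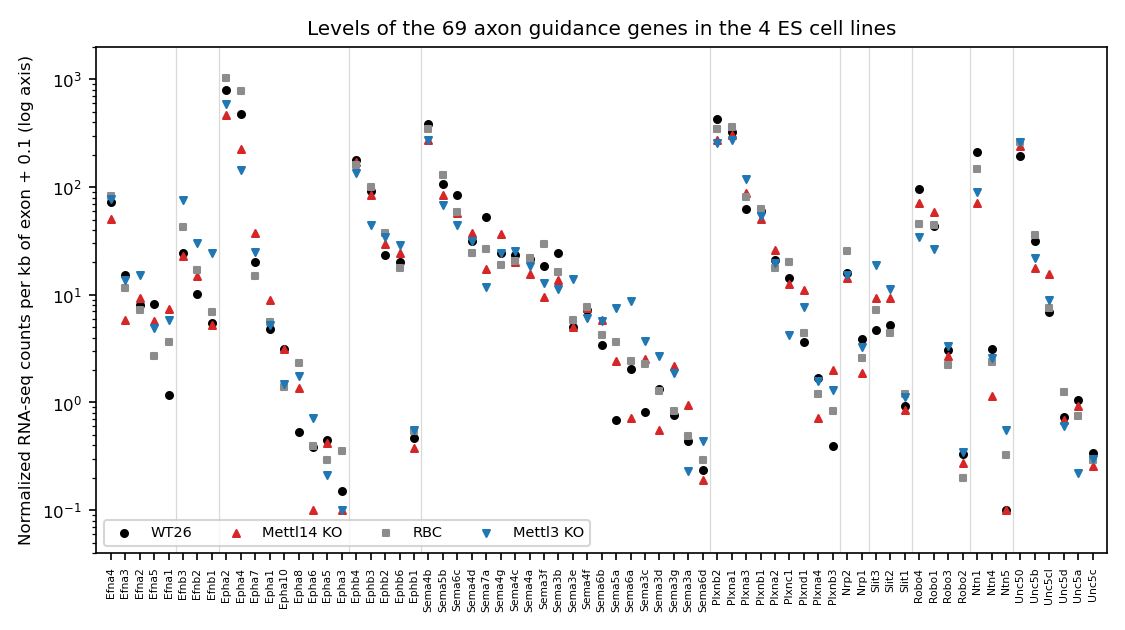
Normalized RNA-seq counts per kb of exon, plus 0.1, on a log axis for the 69 genes, ordered by family and by level within a family; each point is the mean of 2 libraries of a line. Epha2 and Epha4 stand highest and 12 genes lie below 1 per kb in the mean over the lines.

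For the tests, normalized counts are counts divided by DESeq2 size factors and 58 of the 69 genes had enough counts to be tested (edgeR's filterByExpr). The 11 that did not had at most 12 counts in any library (Epha3, Epha5, Epha6, Ephb1, Ntn5, Robo2, Sema6d, Slit1, Unc5a, Unc5c and Unc5d). A gene was called changed when its adjusted p in edgeR's quasi-likelihood test did not exceed 0.05 and its log2 fold change was beyond 1. In the *Mettl14* KO against WT26 cells 6 axon guidance genes rose and 8 fell, where 7.95% and 6.57% of all 17021 tested genes did. In the *Mettl3* KO against RBC cells 8 rose and 5 fell, where 6.15% and 7.43% of all did. On the adjusted p alone, 17 were higher and 20 lower in the *Mettl14* KO (25.5% and 27.0% of all), and 16 were higher and 19 lower in the *Mettl3* KO (25.2% and 28.1% of all). The median of their log2 fold changes was -0.08 for *Mettl14* KO and 0.15 for *Mettl3* KO cells, against 0 and -0.0016 for all tested genes, and the second turned to -0.09 when only genes with at least 10 counts in every library were used. By role, 3 ligands rose and 5 fell among 31 tested in the *Mettl14* KO, and 2 of 25 receptors rose and 3 fell. In the *Mettl3* KO 8 ligands rose and 2 fell, and 0 receptors rose and 3 fell, while on the adjusted p alone 4 receptors were higher and 12 lower. Called in at least 1 knockout were 23 of the 58 genes (39.7%) and 23.3% of all tested genes.

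The largest changes in reads were those of the Epha receptors. Epha4 had 3916.6 and 3735.2 normalized counts in WT26, 1822.8 and 1829.5 in the *Mettl14* KO, 6088.1 and 6445.4 in RBC cells and 1182.7 and 1159.3 in the *Mettl3* KO. Both knockouts were below both controls without overlap, with log2 fold changes of -1.07 (SE 0.0493, adjusted p = 9.76e-12) in the *Mettl14* KO and -2.42 (SE 0.0512, adjusted p = 2.29e-16) in the *Mettl3* KO. The fall was larger in the *Mettl3* KO by 1.35 on the log2 scale (adjusted p = 1.14e-10). Epha2 had 3726.6 and 3749.1 counts in WT26, 2156.3 and 2169.5 in the *Mettl14* KO, 4919 and 4754.7 in RBC cells and 2815.8 and 2748.8 in the *Mettl3* KO. Its log2 fold changes were -0.79 (SE 0.0464, adjusted p = 2.07e-10) and -0.80 (SE 0.0459, adjusted p = 1.47e-10), lower in every knockout library but within the limit of 1, and their difference was -0.01 (SE 0.065). Epha7, which binds A-type ephrins, was higher in both by 0.89 (adjusted p = 3.49e-07) and 0.75 (adjusted p = 8.6e-06). The other 3 tested Epha genes, Epha1, Epha8 and Epha10, had at most 38 normalized counts in any library.

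Among the Ephb receptors, which bind B-type ephrins, only Ephb3 was called. It had 602.3 and 625.9 normalized counts in WT26, 549.8 and 561.1 in the *Mettl14* KO, 702.4 and 613.2 in RBC cells and 287 and 308.2 in the *Mettl3* KO. *Mettl3* KO cells were below all other lines, with a log2 fold change of -1.14 (SE 0.0832, adjusted p = 2.9e-09) against -0.14 (adjusted p = 0.133) in the *Mettl14* KO, and -0.99 when counts were scaled by library totals, which ends the call. The most abundant member, Ephb4, had 796.7 and 851.4 counts in WT26, 769.2 and 823.2 in the *Mettl14* KO, 769.1 and 722.6 in RBC cells and 615.7 and 646.6 in the *Mettl3* KO. Ephb4 was thus lower only slightly, by 0.24 on the log2 scale in the *Mettl3* KO (adjusted p = 0.00745).

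The B-type ephrins, ligands that span the membrane, were all higher in the *Mettl3* KO by adjusted p. Efnb1 had 20.8 and 16.1 normalized counts in WT26, 23 and 12.7 in the *Mettl14* KO, 14.9 and 32.5 in RBC cells and 78.3 and 89.6 in the *Mettl3* KO, where it rose by 1.78 (SE 0.281, adjusted p = 3.79e-05). The *Mettl3* KO libraries were above all 6 others, and the change in the *Mettl14* KO was -0.07 (adjusted p = 0.903). Efnb3, the highest of the 3 per kb, had 77.8 and 78.4 counts in WT26, 79.1 and 67.2 in the *Mettl14* KO, 137.9 and 131.1 in RBC cells and 233.1 and 250.8 in the *Mettl3* KO. Efnb3 and Efnb2 were both higher by 0.85 in the *Mettl3* KO (adjusted p = 1.27e-05 and 9.04e-05), short of the limit of 1.

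The A-type ephrins are anchored to the membrane by a lipid, and 3 of the 5 were called, Efna1 and Efna3 in the *Mettl14* KO and Efna2 in the *Mettl3* KO. Of all tested genes 23.3% were called in at least 1 knockout. The difference between the knockouts passed its test for Efna3 (adjusted p = 0.00601) but not for Efna1 (adjusted p = 0.114) or Efna2 (adjusted p = 0.146). Efna1 had 2 counts in each WT26 library and 27 in all in the *Mettl14* KO, a ratio of 6.79 (95% counting interval 2.37 to 26.7, which covers counting error only). The fitted log2 fold change was 2.69 (adjusted p = 0.00467), and without replicate 1 of *Mettl14* KO it was 1.74 (adjusted p = 0.141). Efna1 had 9.2 and 3.9 normalized counts in RBC cells and 8.7 and 12.1 in the *Mettl3* KO, where the groups overlapped. Efna3 dropped in the *Mettl14* KO from 40.7 and 33.3 to 16 and 11.7 normalized counts (log2 fold change -1.42, SE 0.328, adjusted p = 0.00147), and had 20.7 and 35.5 in RBC cells and 35.7 and 30.2 in the *Mettl3* KO. Efna2 had 15.4 and 18.3 counts in WT26, 18 and 21.4 in the *Mettl14* KO, 13.8 and 16.8 in RBC cells and 35.7 and 29.2 in the *Mettl3* KO, where it rose by 1.08 (SE 0.304, adjusted p = 0.0062). That call was lost without replicate 1 of *Mettl3* KO (0.92), without replicate 1 of RBC (0.95) and with DESeq2 (adjusted p = 0.105). The most abundant A-type ephrin, Efna4, had 120.3 and 113.8 counts in WT26, 73.1 and 87.7 in the *Mettl14* KO, 132.2 and 131.1 in RBC cells and 124.4 and 120.9 in the *Mettl3* KO, and was not called.

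**Figure D2:**
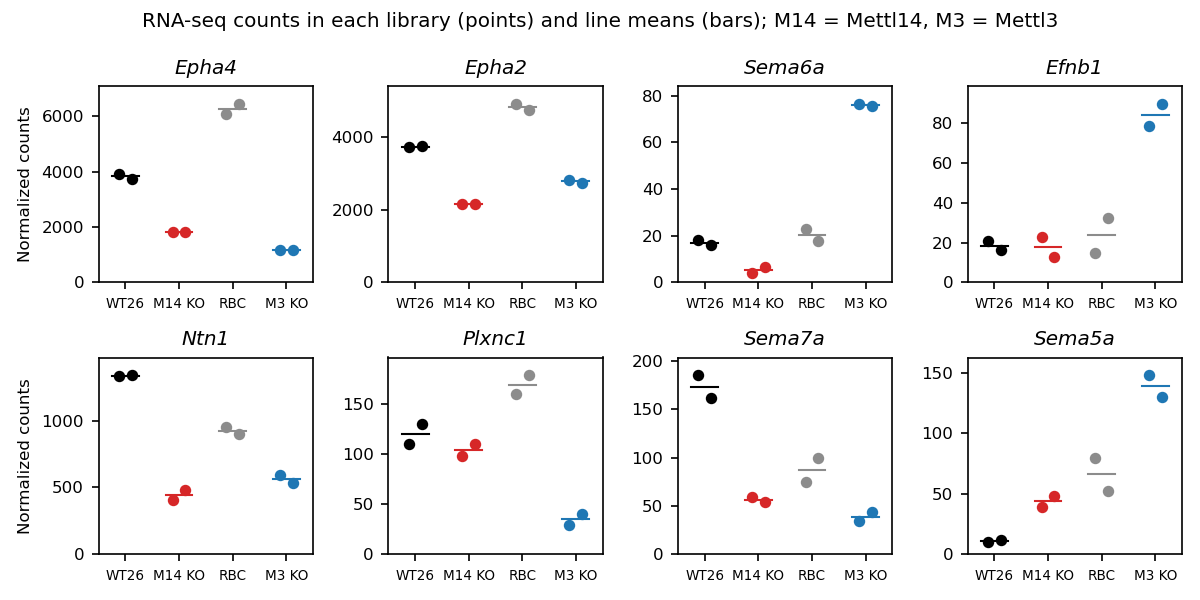
Normalized RNA-seq counts of 8 genes in each of the 8 libraries (points), with the mean of each line (bar), on axes that start at 0. Epha4 and Epha2 are lower in both knockouts than in either control, while Sema6a is lowest in the *Mettl14* KO and highest in the *Mettl3* KO.

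Semaphorins are the largest family, and 7 of the 19 tested were called in a knockout, where 23.3% of all tested genes were. Sema6a, a membrane-bound ligand of A-type plexins, moved in opposite directions. It had 18.1 and 16.1 normalized counts in WT26, 4 and 6.8 in the *Mettl14* KO, 23 and 17.7 in RBC cells and 76.5 and 75.5 in the *Mettl3* KO. The log2 fold changes were -1.64 (SE 0.427, adjusted p = 0.00375) and 1.91 (SE 0.242, adjusted p = 3.18e-06), and they differed by 3.54 (SE 0.489, adjusted p = 1.46e-05). Sema7a, a lipid-anchored ligand of Plxnc1 and integrins, had 185.4 and 162.1 counts in WT26, 59.1 and 53.6 in the *Mettl14* KO, 74.7 and 99.6 in RBC cells and 33.9 and 43.3 in the *Mettl3* KO. It fell in both knockouts, by 1.63 (SE 0.173, adjusted p = 3.89e-07) and 1.19 (SE 0.206, adjusted p = 9.25e-05) on the log2 scale, and without replicate 2 of RBC the second value was -0.96. RBC cells were themselves lower than WT26 in Sema7a, by 0.99 (adjusted p = 9.54e-05).

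Sema5a, a transmembrane semaphorin with thrombospondin repeats, was the single gene of the list called higher in both knockouts. Others, such as Slit2, Slit3 and Epha7, were higher in both by adjusted p but not beyond the limit of 1 in both. It had 9.9 and 11.8 normalized counts in WT26, 39.1 and 47.7 in the *Mettl14* KO, 79.3 and 52.2 in RBC cells and 147.8 and 129.9 in the *Mettl3* KO. The changes were 2.00 (SE 0.325, adjusted p = 5.51e-05) and 1.10 (SE 0.188, adjusted p = 8.6e-05), and without replicate 2 of RBC the second was 0.81. RBC was above WT26 by 2.58 (SE 0.304, adjusted p = 2.55e-06), beside the changes of 2.00 and 1.10 in the knockouts, so the *Mettl14* KO libraries lay below those of RBC. Sema4b, the most abundant semaphorin, had 2223.7 and 2134.4 counts in WT26, 1469.2 and 1617.2 in the *Mettl14* KO, 1976.1 and 1933.2 in RBC cells and 1613.1 and 1488.7 in the *Mettl3* KO. It was lower by 0.50 (adjusted p = 5.82e-07) and 0.33 (adjusted p = 5.83e-05) on the log2 scale, which is not a call.

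The other 4 were secreted class 3 semaphorins. Sema3e, which binds Plxnd1 without a neuropilin, had 43.4 and 48.3 normalized counts in WT26, 44.1 and 46.8 in the *Mettl14* KO, 50.6 and 56.2 in RBC cells and 139.1 and 118.9 in the *Mettl3* KO. It rose in the *Mettl3* KO (log2 fold change 1.27, SE 0.171, adjusted p = 6.32e-06) and was level in the *Mettl14* KO (-0.01, SE 0.209). Sema3f, a ligand of Nrp2, had 98.6 and 91.3 counts in WT26, 45.1 and 53.6 in the *Mettl14* KO, 151.7 and 152.8 in RBC cells and 66.1 and 66.5 in the *Mettl3* KO. It fell by 1.20 (SE 0.15, adjusted p = 2.65e-06) in the *Mettl3* KO and was lower by 0.94 (adjusted p = 0.000152) in the *Mettl14* KO. Sema3c had 2.7 and 7.5 counts in WT26, 22 and 12.7 in the *Mettl14* KO, 11.5 and 19.7 in RBC cells and 22.6 and 29.2 in the *Mettl3* KO, and Sema3d had 8.1 and 12.9, 4 and 3.9, 10.3 and 9.9, and 15.7 and 29.2 in the same order of lines. Sema3c was called higher in the *Mettl14* KO (1.79, adjusted p = 0.00884) and Sema3d in the *Mettl3* KO (1.12, adjusted p = 0.03), and both are low counts. Sema3c was not called without replicate 1 of *Mettl14* KO (1.34) or of WT26 (1.19), and Sema3d without replicate 2 of *Mettl3* KO (0.63), without replicate 1 or 2 of RBC (1.15 and 1.08, adjusted p = 0.0913 and 0.128) or with DESeq2 (adjusted p = 0.22).

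Among plexins and neuropilins, the semaphorin receptors, Plxnc1 was called in the *Mettl3* KO and Plxnd1, Plxnb3, Plxna4 and Nrp1 in the *Mettl14* KO. For comparison, 23.3% of all tested genes were called in at least 1 knockout. Plxnc1, the receptor of Sema7a, had 109.4 and 129.9 normalized counts in WT26, 98.2 and 110.1 in the *Mettl14* KO, 159.8 and 178.4 in RBC cells and 28.7 and 40.3 in the *Mettl3* KO. It fell in the *Mettl3* KO (log2 fold change -2.31, SE 0.183, adjusted p = 8.94e-09), and the change of -0.19 in the *Mettl14* KO differed from that (adjusted p = 2.26e-06). Plxnd1 had 18.1 and 33.3 counts in WT26, 83.1 and 78.9 in the *Mettl14* KO, 31 and 32.5 in RBC cells and 43.5 and 66.5 in the *Mettl3* KO. It rose by 1.68 (SE 0.265, adjusted p = 3.77e-05) in the *Mettl14* KO, and in the *Mettl3* KO it was higher by 0.77 (adjusted p = 0.024), a difference of -0.91 that missed the threshold (adjusted p = 0.0691). Plxnb2, the most abundant plexin, had 3202.1 and 3402.3 counts in WT26, 2045.1 and 2145.2 in the *Mettl14* KO, 2708.4 and 2587.8 in RBC cells and 1995.7 and 1937.9 in the *Mettl3* KO, lower by 0.66 and 0.43 on the log2 scale (adjusted p = 3.51e-09 and 8.02e-07).

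3 more semaphorin receptors were called in the *Mettl14* KO on few reads. Plxnb3 had 3 counts and 1 count in WT26 and 25 in all in the *Mettl14* KO, a ratio of 6.29 (95% counting interval 2.17 to 24.9) with an adjusted p of 0.00205 in edgeR. Its normalized counts were 4.6 and 4.9 in RBC cells and 9.6 and 6 in the *Mettl3* KO, and its changes in the knockouts differed with an adjusted p of 0.104. Plxna4 had 24.4 and 20.4 counts in WT26, 4 and 13.6 in the *Mettl14* KO, 17.2 and 13.8 in RBC cells and 16.5 and 25.2 in the *Mettl3* KO (log2 fold change -1.33, adjusted p = 0.0173 in the *Mettl14* KO). Nrp1, which also serves as a co-receptor of vascular growth factors, had 44.3 and 29 counts in WT26, 14 and 20.5 in the *Mettl14* KO, 21.8 and 26.6 in RBC cells and 24.3 and 38.3 in the *Mettl3* KO (log2 fold change -1.10, adjusted p = 0.0097 in the *Mettl14* KO). The calls of Plxna4 and Nrp1 were lost without replicate 1 of *Mettl14* KO (-0.72 and -0.85), without replicate 1 of WT26 (-1.19 and -0.74) and with DESeq2 (adjusted p = 0.11 and 0.0829). Nrp2, with 187.2 and 186.8 counts in WT26, 167.3 and 170.5 in the *Mettl14* KO, 300 and 298.7 in RBC cells and 183.5 and 177.3 in the *Mettl3* KO, was lower by 0.73 in the *Mettl3* KO (adjusted p = 4.79e-06). The same direction was seen in the *Mettl14* KO with a smaller value (-0.15, adjusted p = 0.247).

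The 2 tested Slit ligands were higher in both knockouts. Slit2 had 127.5 and 134.2 normalized counts in WT26, 227.3 and 244.5 in the *Mettl14* KO, 112.7 and 106.5 in RBC cells and 283.5 and 283 in the *Mettl3* KO. Its log2 fold changes were 0.85 (SE 0.109, adjusted p = 3.68e-06) and 1.37 (SE 0.111, adjusted p = 1.08e-08), the second larger by 0.52 (adjusted p = 0.0127). Slit3 had 33.5 and 22.5 counts in WT26, 51.1 and 61.4 in the *Mettl14* KO, 48.3 and 38.4 in RBC cells and 114.8 and 112.8 in the *Mettl3* KO, with changes of 0.98 (adjusted p = 0.00214) and 1.40 (SE 0.197, adjusted p = 1.05e-05). Only the *Mettl3* KO values passed the limit of 1. None of the 3 tested Robo receptors was called in a knockout. Robo1 was higher by 0.42 in the *Mettl14* KO (adjusted p = 3.74e-05) and lower by 0.75 in the *Mettl3* KO (adjusted p = 8.47e-08), a difference of -1.17 (adjusted p = 3.93e-08). Robo4, the endothelial member of the family and the highest of them per kb, had 510.9 and 505.7 counts in WT26, 381.6 and 379 in the *Mettl14* KO, 256.4 and 227.7 in RBC cells and 186.1 and 180.3 in the *Mettl3* KO.

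Netrins fell in the *Mettl14* KO. Ntn1, the secreted ligand of Dcc and Unc5 receptors, had 1334.8 and 1343.1 normalized counts in WT26, 405.6 and 478.3 in the *Mettl14* KO, 951.8 and 903 in RBC cells and 593.1 and 534.8 in the *Mettl3* KO. The log2 fold changes were -1.60 (SE 0.0768, adjusted p = 1.68e-11) and -0.71 (SE 0.0762, adjusted p = 3.85e-07), and they differed by 0.88 (adjusted p = 3.95e-06). Ntn4, a netrin of basement membranes, had 9.9 and 12.9 counts in WT26, 3 and 4.9 in the *Mettl14* KO, 8 and 8.9 in RBC cells and 9.6 and 9.1 in the *Mettl3* KO. Its call in the *Mettl14* KO (-1.49, adjusted p = 0.0238) was lost without either *Mettl14* KO library (-1.19 and -1.87), without replicate 2 of WT26 (-1.31) and with DESeq2 (adjusted p = 0.194). Unc5b, the one Unc5 netrin receptor with enough reads to test, was lower in both knockouts by 0.83 (adjusted p = 2.73e-05) and 0.72 (adjusted p = 6.3e-05), with 99.2 and 123.7 counts in the *Mettl14* KO, 223 and 228.7 in RBC cells and 139.1 and 134 in the *Mettl3* KO. Of the genes listed by letters only, Unc5cl had 25.3 and 18.3 counts in WT26, 40.1 and 60.4 in the *Mettl14* KO, 24.1 and 23.7 in RBC cells and 32.2 and 25.2 in the *Mettl3* KO. Unc5cl was called higher in the *Mettl14* KO (1.19, adjusted p = 0.00176), a value that was 0.86 without replicate 2 of *Mettl14* KO and 0.98 without replicate 2 of WT26. Unc50 had 289.4 and 328.5 counts in WT26, 374.6 and 389.7 in the *Mettl14* KO, 423 and 409.1 in RBC cells and 391.3 and 445.2 in the *Mettl3* KO and was not called.

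**Figure D3:**
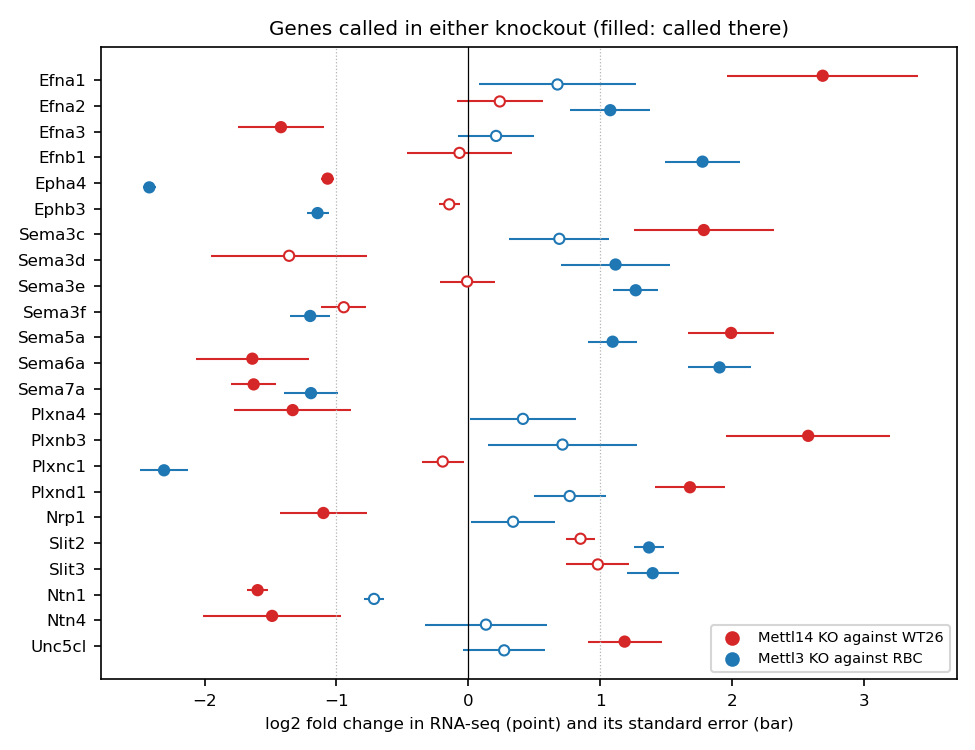
Log2 fold changes in RNA-seq (points) with standard errors (bars) of the 23 genes called in either knockout, in the *Mettl14* KO against WT26 (red) and *Mettl3* KO against RBC (blue). Filled points were called; dotted lines mark a log2 fold change of 1, and only Epha4, Sema5a, Sema6a and Sema7a are filled in both colours.

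Of 23 genes called in either knockout 4 (17.4%) were called in both: Epha4 and Sema7a fell in both, Sema5a rose in both, and Sema6a went in opposite directions. Over all genes 814 of 3969 (20.5%) were called in both, 279 up, 350 down and 185 in opposite directions, so the share in the axon guidance genes was near that of all. The difference between the knockouts was itself tested. With an adjusted p within 0.05 it was positive (higher in the *Mettl3* KO) for 12 axon guidance genes and negative for 9, where 20.8% and 22.4% of all genes passed, and with library totals in place of size factors the split was 17 and 7. In addition to genes given above, Sema3d differed by 2.48 (adjusted p = 0.00985), Efnb1 by 1.84 (adjusted p = 0.00587), Plxna4 by 1.75 (adjusted p = 0.0254), Efna3 by 1.63 (adjusted p = 0.00601) and Nrp1 by 1.44 (adjusted p = 0.0176). The 2 control lines differed as well. In RBC against WT26 cells 3 genes were higher (Sema5a, Sema3c and Epha8) and 3 lower (Efna5, Epha10 and Robo4), where 4.86% and 4.12% of all genes were called, and with library totals the split was 2 and 4. Robo4 was the one of these with over 100 counts, lower in RBC by 1.07 (SE 0.0861, adjusted p = 2.32e-08). Without replicate 2 of RBC that value was -0.99. Epha8 had 4 counts in all in WT26 and 20 in RBC, a ratio of 5.41 (95% counting interval 1.81 to 21.8). Without replicate 1 of WT26 there were 3 calls in place of 6, with 1.68 for Epha8 (adjusted p = 0.121), 1.06 for Sema3c (adjusted p = 0.221) and -1.38 for Epha10 (adjusted p = 0.0635).

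Other genes of the pathway were counted as lists, to be read against the shares of all tested genes that rose and fell, 7.95% and 6.57% in the *Mettl14* KO and 6.15% and 7.43% in the *Mettl3* KO. Of 16 tested co-receptors and further guidance ligands, 1 rose and 0 fell in the *Mettl14* KO, and 1 rose and 3 fell in the *Mettl3* KO. The rise in the *Mettl14* KO was that of Gpc1, a heparan sulfate proteoglycan (1.804, adjusted p = 3.48e-10). In the *Mettl3* KO Flrt1 rose (1.83, adjusted p = 0.00172), and the adhesion molecules Cntn2 (-1.75, adjusted p = 7.61e-09) and L1cam (-1.44, adjusted p = 4.54e-06) fell most. Of 51 cytoplasmic effectors 3 rose and 3 fell in the *Mettl14* KO and 2 rose and 1 fell in the *Mettl3* KO. The semaphorin mediators Dpysl3 and Crmp1 fell in the *Mettl14* KO, by 3.16 (adjusted p = 6.45e-12) and 1.89 (adjusted p = 3.5e-09), and the actin-binding Ablim3 rose by 1.94 (adjusted p = 0.00181). In the *Mettl3* KO Dpysl4 (1.39, adjusted p = 5.95e-05) and Crmp1 (1.004, adjusted p = 2.59e-07) rose and the Rac regulator Chn2 fell (-1.34, adjusted p = 6.52e-05). Of 13 genes of ephrin processing and adaptors, Grip1 rose (1.55, adjusted p = 3.31e-08) and Grb10 fell (-1.09, adjusted p = 8.74e-12) in the *Mettl14* KO, and Mmp2 fell in the *Mettl3* KO (-1.18, adjusted p = 3.76e-07). The control lines differed too: RBC against WT26 cells was 2.10 for Gpc1, -1.95 for Dpysl3 and 1.07 for Grip1, each called. The other genes named in these lists were not called between the control lines.

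The input libraries of MeRIP-seq measured the same lines again. Of 61 genes tested there, none was called: for *Mettl14* KO against WT26 0.124% of 22621 features were higher and 0.274% lower, and for *Mettl3* KO against RBC 0.181% and 0.57%. In edgeR 10 and 14 of the 61 had an unadjusted p under 0.05, and DESeq2 called 0 and 4. How many of all features had such an unadjusted p was not computed. With the replicate number as a block, 1 gene was called in the *Mettl14* KO and 3 in the *Mettl3* KO. Of all features, 359 and 422 were called with that block. With a block for each number in input and in IP, 3 and 7 were called. They were Sema5a and Plxnd1 higher and Sema7a lower in the *Mettl14* KO. In the *Mettl3* KO they were Sema6a, Efnb1, Ephb6 and Robo3 higher and Epha4, Ephb3 and Sema5b lower. Of all features 1.67% were then higher and 2.11% lower in the *Mettl14* KO, and 1.74% and 2.57% in the *Mettl3* KO. In the *Mettl14* KO 13 of the 14 genes called in RNA-seq had the same sign in the input, Sema3c being the exception, and in the *Mettl3* KO 13 of 13 did. Of all 58 axon guidance genes tested in both, called or not, 47 and 48 had the same sign. The share among all genes called in RNA-seq was not computed. Over the 58 genes tested in both, the log2 fold changes had a Pearson correlation of 0.768 (Spearman 0.812) in the *Mettl14* KO and 0.751 (0.783) in the *Mettl3* KO. These are correlations across genes, which are not independent replicates, and each pair of values shares its cell lines.

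**Figure D4:**
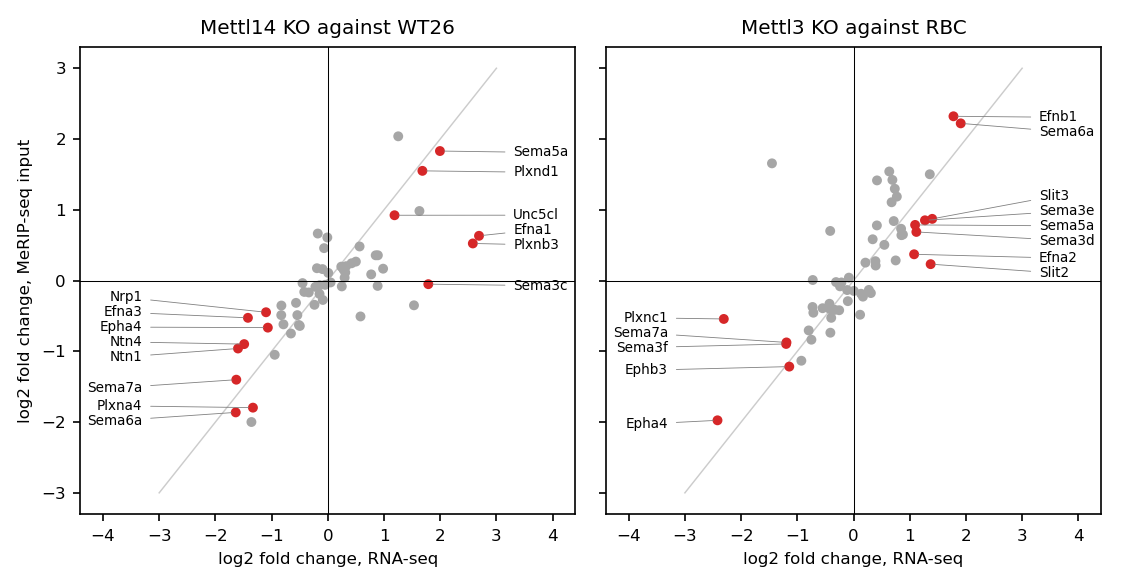
Log2 fold change of each of 58 genes in RNA-seq (x axis) and in the input of MeRIP-seq (y axis), for *Mettl14* KO (left) and *Mettl3* KO cells (right); red points were called in RNA-seq, and the grey line marks equal values. Of the red points 13 of 14 on the left and 13 of 13 on the right have the same sign on both axes, and of all 58 points 47 and 48 do.

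The m6A antibody enriched a small number of these genes. Enrichment was called where the adjusted p did not exceed 0.05 and the log2 value of IP over input was above 1. It was called for 6 genes in WT26 (14.5% of all features), 5 in the *Mettl14* KO (11.9%), 7 in RBC (13.4%) and 0 in the *Mettl3* KO (2.54%). In the *Mettl3* KO 6 genes had an unadjusted p under 0.05 in edgeR, 2 of them positive, and DESeq2 called 1. The matching share of all features for the unadjusted p was not computed. Depletion was called for 0 genes in WT26, *Mettl14* KO and RBC, where 13.5%, 9.91% and 11.1% of features were depleted, and for Plxna3 in the *Mettl3* KO (1.86% of features). The median log2 IP over input was 0.48 in WT26, 0.35 in the *Mettl14* KO, 0.47 in RBC and -0.03 in the *Mettl3* KO, where that of 14793 protein-coding genes was 0.26, 0.23, 0.25 and 0.11. All features together had medians between -0.01 and 0.02. The size factors place that median near 0, so these ratios are relative to the other features. A shift common to all features would not show in them. The IP libraries stood apart by number: in each line, replicate 2 gave the larger values, with a median in WT26 of 0.33 and 0.60, in the *Mettl14* KO of 0.12 and 0.72, in RBC of 0.11 and 0.76 and in the *Mettl3* KO of -0.12 and 0.13. The number of enriched genes moved with the library left out. It was 14 in WT26, 16 in the *Mettl14* KO and 14 in RBC without replicate 1 of the IP of that line, 0 in each without replicate 2 of the IP, and 0 or 1 without either input. With a block for each number in input and in IP it was 12, 8 and 11 in these lines and 1 in the *Mettl3* KO. Of all features, 17.5%, 15.7%, 16.7% and 8.5% were enriched with that block, in the same order of lines.

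Efna4 had the highest IP over input of the 61 genes in WT26 and both knockouts, and Efnb1 in RBC (1.88 against 1.8). In WT26 it had 50.3 and 27.3 normalized counts in the input and 158.7 and 242.9 in the IP, in the *Mettl14* KO 30.5 and 25.3 against 92.4 and 224.4, in RBC 55.1 and 56.8 against 140.3 and 251.5, and in the *Mettl3* KO 46.3 and 45 against 109.3 and 144.7. Every IP library was above every input library of its line. The log2 values were 2.33 (SE 0.451, adjusted p = 0.00643), 2.46 (SE 0.475, adjusted p = 0.00831), 1.8 (SE 0.441, adjusted p = 0.0134) and 1.47 (SE 0.447, adjusted p = 0.0679) in that order of lines. Efna4 was the gene called in the *Mettl3* KO with the block for each number (1.49, adjusted p = 0.000559). An RNA on the other strand, 4731419I09Rik, overlaps an exon of Efna4, and whether the counting used strand was not given in the sources used here.

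Sema4b and Epha2 were called enriched on many reads, and Epha4, also with many reads, was not called in any line by that rule. Sema4b had 1767.1 and 1667 counts in the input and 2764.2 and 5318.3 in the IP of WT26, 1071.6 and 1130.2 against 1751.7 and 4098.6 in the *Mettl14* KO, 1548 and 1430 against 2438.1 and 4412.7 in RBC, and 1233.4 and 1000.3 against 1429.9 and 1938.8 in the *Mettl3* KO. The log2 values of 1.23, 1.41 and 1.20 were called in the first 3 lines (adjusted p = 0.0304, 0.0235 and 0.0384), and that in the *Mettl3* KO was 0.59 (adjusted p = 0.361). Epha2 was called in WT26 (1.25, adjusted p = 0.0294) and *Mettl14* KO (1.27, adjusted p = 0.0341), with 1.06 in RBC (adjusted p = 0.0591) and 0.45 in the *Mettl3* KO (adjusted p = 0.498). For Epha4 the IP of each line but *Mettl3* KO was also above its input in both replicates by 0.73 or more, but the spread was wide: the log2 values were 1.27, 1.27, 1.24 and 0.60 (adjusted p = 0.0688, 0.0805, 0.0806 and 0.477). With the block for each number the first 3 were called, at 1.16, 1.14 and 1.18. The other enriched genes were Efna2 (1.77), Sema3e (1.32) and Ephb3 (1.02) in WT26, Efna2 (2.17) and Ephb2 (1.04) in the *Mettl14* KO, and Efnb1 (1.88), Epha7 (1.24), Efnb2 (1.22), Sema4c (1.22) and Ephb2 (1.04) in RBC.

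By family, medians of IP over input were highest for the 2 tested netrins in WT26 (1.10, and 1.19 in RBC) and for Efna genes in RBC, and lowest for plexins and Slits in both. In WT26 the median was 0.54 for Efna, 0.75 for Efnb and 0.60 for Sema genes, with 16 of 19 semaphorins above 0, and in RBC it was 1.47, 1.22 and 0.69, with 17 of 19 above 0. The receptor families Nrp, Epha and Ephb had medians of 0.65, 0.63 and 0.58 in WT26 and 0.27, 0.23 and 0.72 in RBC. Plexins had medians of 0.11 and -0.27 with 5 and 4 of 9 above 0, and Slits of -0.22 and -0.10. Plxna3, a receptor of class 3 semaphorins, was below its input in every line, with log2 values of -0.76 in WT26, -0.66 in the *Mettl14* KO, -0.67 in RBC and -1.07 in the *Mettl3* KO (adjusted p = 0.0155, 0.0326, 0.0291 and 0.0143). Plexin transcripts have 31 to 38 exons. Across the 61 genes the rank correlation of IP over input with the number of exons was -0.408 in WT26, -0.371 in the *Mettl14* KO, -0.516 in RBC and -0.36 in the *Mettl3* KO, and -0.446, -0.43, -0.441 and -0.371 across 14740 protein-coding genes. With GGACT per kb it was 0.219 in WT26, 0.431 in the *Mettl14* KO, 0.254 in RBC and 0.328 in the *Mettl3* KO for the 61 genes. Across the protein-coding genes it was 0.078, 0.086, 0.077 and 0.041. Whether it differs between lines was not tested. These correlations across genes come from the same libraries and are given as descriptions.

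**Figure D5:**
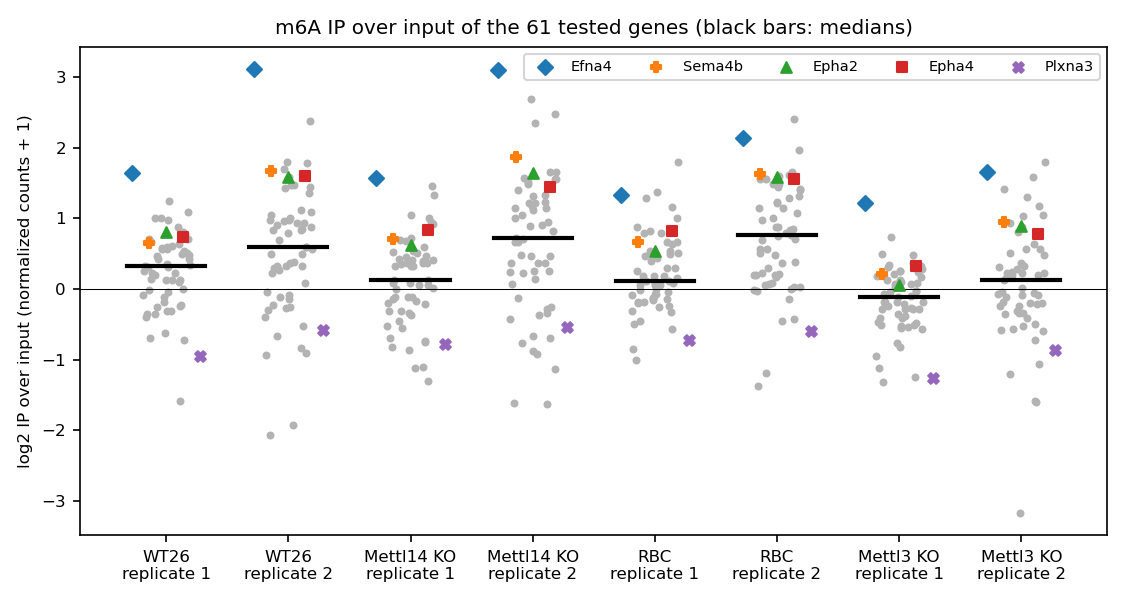
Log2 ratio of IP to input (normalized counts plus 1) of the 61 tested genes in each replicate of the 4 lines; grey points are genes, black bars the medians and coloured symbols 5 named genes. Replicate 2 lies higher than replicate 1 in every line, and the *Mettl3* KO medians of -0.12 and 0.13 are the lowest for their replicate number.

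Last, the change of IP over input in each knockout was tested. No axon guidance gene and 0% of all 22621 features changed with an adjusted p within 0.05, in either direction and in either knockout. Because size factors hold the median of all features near 0, a loss of m6A common to all RNAs could not be seen here. Values near 0 are therefore not evidence of unchanged m6A. In edgeR 0 of the 61 genes in the *Mettl14* KO and 3 in the *Mettl3* KO had an unadjusted p under 0.05, and DESeq2 called 0 in both. With the block for each number in input and in IP, 0 and 12 had one and again no gene of the list was called. The share of all features with an unadjusted p under 0.05 was not computed for either fit, so these counts have no background to be read against. In the *Mettl14* KO the changes lay on both sides of 0, 31 above and 30 below, with a median of 0.02. Its numbered replicates went opposite ways, with medians of -0.15 and 0.14 and with 43 and 22 of the 61 below 0. Medians of protein-coding genes were -0.01 and 0 there. The median in the *Mettl14* KO ranged from -0.36 to 0.28 over the alternative settings. In the *Mettl3* KO 54 of the 61 were below 0, with a median of -0.50 against 0.01 for all features and -0.12 for protein-coding genes, of which 42.5% were above 0. Both numbered replicates gave this sign, with medians of -0.37 and -0.64 against -0.08 and -0.15 for protein-coding genes. In these replicates 48 and 51 of the 61 were below 0, against 57.4% and 56.6% of protein-coding genes. Of the 61, 41 were below 0 in both replicates and 3 above 0 in both. The share of protein-coding genes below 0 in both was not computed. The median in the *Mettl3* KO ranged from -0.73 to -0.26 over the alternative settings. By role it was -0.54 for 32 ligands and -0.50 for 27 receptors. The 3 genes with an unadjusted p under 0.05 were Efna5 (-1.97, SE 0.638), Efnb1 (-1.80, SE 0.776) and Sema4g (-1.11, SE 0.44), each with an adjusted p of 0.854. Efna5 had 23.6 and 8.8 counts in the input and 34.7 and 30.2 in the IP of RBC, and 24.5 and 27.3 against 16.9 and 8.3 in the *Mettl3* KO. For Efnb1 the counts were 12.4 and 8.8 against 28.8 and 51.3 in RBC and 57.2 and 49.8 against 56 and 57.2 in the *Mettl3* KO, so the input was higher and the IP near that of RBC. Whether the change in the *Mettl3* KO differs from that in the *Mettl14* KO was not tested.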

How the data were processed

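RNA of 4 ES cell lines, nuclear by the study's text and total by the labels, was measured by RNA-seq (8 libraries) and MeRIP-seq (16 libraries), 2 biological replicates per group, and 3 MeRIP reactions were combined per replicate. The authors deposited raw counts without normalization; MeRIP-seq reads were trimmed with cutadapt 1.8.1, aligned to GRCm38 with STAR 2.6.0c and counted with TEtranscripts, while the RNA-seq counting tool is not given in the sources used here. Symbols, exons and transcripts are those of GENCODE on GRCm38. Counts were fitted with edgeR 4.0.16 (quasi-likelihood, R 4.3.3) with DESeq2 1.42.0 size factors, filterByExpr and Benjamini-Hochberg adjustment over 17021 genes or 22621 features, all libraries of a table in 1 fit. The common biological coefficient of variation was 0.0625 in RNA-seq and 0.273 in MeRIP-seq. Totals and intervals cover counting error only. Per-replicate ratios added 1 to the normalized counts.

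Input and IP of a number share a biological replicate: over 12716 genes their deviations correlated by 0.214 to 0.302 within lines. Between lines, same-numbered IP libraries correlated by 0.567 to 0.792 and inputs by 0.246 to 0.454.

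The genes, lists and tests were chosen with earlier results of these data known. Every gene of the list may be named; values in each library are given for genes called in a knockout and for the highest of each family, and of other pathway genes the 3 largest calls per list. Alternatives were TMM, library totals, DESeq2's Wald test, replicate blocks, leaving out each library, fits of single comparisons, calls on the adjusted p without a fold limit, no filter, and a minimum of 10 counts per library. The block for each number in input and in IP was chosen after seeing the data.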

Additional observations from a re-analysis of the deposited data

Results flagged for a closer look

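For 12 of the 23 genes called in a knockout, the change in *Mettl3* KO against RBC cells differed from that in *Mettl14* KO against WT26 cells (edgeR's quasi-likelihood test of the difference, adjusted p of at most 0.05). The 23 were chosen by a call in 1 of the 2 changes compared, which makes a difference more likely. The share among all genes called in a knockout was not computed. Of all tested axon guidance genes 20.7% had a positive and 15.5% a negative difference, where 20.8% and 22.4% of all tested genes did. Among the 12, the difference on the log2 scale, *Mettl3* KO minus *Mettl14* KO, was positive for Sema6a (3.54), Sema3d (2.48), Efnb1 (1.84), Plxna4 (1.75), Efna3 (1.63), Nrp1 (1.44), Sema3e (1.28), Ntn1 (0.88) and Slit2 (0.52). It was negative for Plxnc1 (-2.11), Epha4 (-1.35) and Ephb3 (-0.9995). Sema6a, Sema3d, Efnb1, Plxna4, Efna3, Nrp1 and Sema3e had under 50 normalized counts in each WT26 and *Mettl14* KO library. For 6 of the 12 the difference missed the threshold under some alternative. DESeq2 gave adjusted p = 0.118 for Nrp1, 0.147 for Plxna4, 0.136 for Slit2, 0.0725 for Sema3d and 0.0627 for Efna3. In edgeR the difference was 1.64 for Efnb1 without replicate 1 of WT26 (adjusted p = 0.0518), 2.14 for Sema3d without replicate 2 of WT26 (adjusted p = 0.0632), 1.13 for Plxna4 and 0.46 for Slit2 without replicate 1 of *Mettl14* KO (adjusted p = 0.143 and 0.0526), and 1.09 for Nrp1 without replicate 1 of WT26 (adjusted p = 0.114). Nrp1 (1.19 and 1.10), Plxna4 and Slit2 were also lost without other single libraries: *Mettl14* KO replicate 1 and *Mettl3* KO replicate 2 for Nrp1, replicate 1 of WT26 and replicate 2 of RBC or *Mettl3* KO for Plxna4 (1.43 to 1.61), and replicate 2 of RBC for Slit2 (0.48). The knockouts were made from different parental lines, so the targeted gene, the parental line and the clone cannot be told apart. Groups of 2 libraries are too small to look for single values far from the others.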

How the results depend on the processing

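Of 27 calls in the knockouts in RNA-seq, 16 were kept under every alternative that gave them a value (3 of these, Plxnb3 and Sema6a in *Mettl14* KO and Sema6a in *Mettl3* KO, were not tested with the minimum of 10 counts), 11 were lost under at least 1 and 5 with DESeq2, and none of the 72 called values of genes changed sign. Counts of called genes on the adjusted p alone were 37 (*Mettl14* KO), 35 (*Mettl3* KO) and 28 (RBC against WT26), against 14, 13 and 6. With at least 10 counts in every library they were 8 in *Mettl14* KO and 2 in RBC against WT26, since 46 genes were then tested, and DESeq2 gave 3 in RBC against WT26 and 12 for the difference between the knockouts. Leaving out single libraries gave 11 to 13, 10 to 13, 3 to 6 and 16 to 23 calls in the 4 RNA-seq comparisons. RNA-seq numbers do not mark shared handling in the labels, and same-numbered deviations correlated by -0.0713 between WT26 and *Mettl14* KO and 0.453 between RBC and *Mettl3* KO cells (11879 genes): the replicate block gave 16, 13, 6 and 21 calls.

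Scaling by library totals moved the median of all genes by 0.15 in *Mettl3* KO against RBC, -0.15 in RBC against WT26 and 0.18 in the difference, and that of IP over input by 0.44 (WT26), 0.44 (*Mettl14* KO), 0.47 (RBC) and 0.38 (*Mettl3* KO). Enriched genes then numbered 17, 18, 20 and 2, and with no filter 10, 8, 11 and 1. The block for each number in input and in IP gave 12, 8, 11 and 1, where 17.5%, 15.7%, 16.7% and 8.5% of all features were enriched. In *Mettl3* KO cells the libraries compared alone gave 2 and DESeq2 1. Leaving out single libraries gave 0 to 14, 0 to 16, 0 to 14 and 0. The block on pairs of input and IP gave 6, 4, 5 and 0 and changed no count by over 1.5 times. Changes of IP over input stayed at 0 calls under all 17 alternatives, with too few replicates to read that as stability. Input calls in *Mettl14* KO were 2 (no filter), 1 (block on the number), 3 (block for each number) and 1 (libraries compared alone). In *Mettl3* KO they were 1 (library totals), 5, 3, 7, 6 and 4 (DESeq2), the middle values in the same order. The causes of these shifts were not tested. Genes under about 10 counts in a library rest on counting error, and the spread between IP replicates limits the rest.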
